A study of Mus musculus with 4 samples.

Results

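The genes described here encode antioxidant enzymes and metallothioneins: *Mt1*, *Mt2*, *Sod1*, *Sod2*, *Cat*, *Gclc*, *Gclm*, *Txnrd1*, *Hmox1* and *Nqo1*. They were chosen by name as a panel of oxidative stress genes, with earlier results of these data known. They are 10 of the 27998 genes counted in 4 single-cell RNA libraries of hindlimb muscle. Each library held cells of 2 pooled mice of 1 strain, sorted as ITGA7+/VCAM+ cells with cells bearing the lineage markers CD11b, Sca1, CD45 or CD31 removed, which enriches satellite cells, the muscle stem cells (MuSC). B10 (strain C57/Bl10ScsSn, 15 weeks) was the dystrophin-intact control of *mdx* (C57BL/10ScSn-Dmdmdx, 11 weeks), and DBA (DBA/2, 13 weeks) was the control of D2-*mdx* (D2.B10-Dmdmdx, 14 weeks). Both dystrophic strains carried the *Dmd* mdx allele, so disease was compared on the B10 and on the DBA background, and the ages differed within each pair. The labels name no treatment.

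Cells meet reactive oxygen species with enzymes that act in series. Superoxide dismutases turn superoxide into hydrogen peroxide, catalase and the glutathione and thioredoxin systems remove the peroxide, and haem oxygenase and quinone reductase remove pro-oxidant molecules. Many of these genes are targets of the transcription factor NRF2 (*Nfe2l2*) through antioxidant response elements (ARE). Metallothioneins are small cysteine-rich proteins that bind zinc and copper and can scavenge oxidants. Their genes are switched on by the zinc sensor MTF1 through metal response elements (MRE), and also by glucocorticoids and by tissue stress.

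*Mt1* and *Mt2* are neighbours on mouse chromosome 8, both on the plus strand. In GRCm38 with the GENCODE M21 annotation, *Mt2* spans chr8:94172664-94173568 and *Mt1* spans chr8:94179082-94180327, with 5513 bases between them. Their annotated transcripts shared no identical run longer than 20 bases. The sequences upstream of the start sites are shown because *Mt1* and *Mt2* were the most abundant members, beside *Gclm*, whose level differed little between libraries in MuSC-like cells. Each is the 242 bases that remain of the 250 before the RefSeq start (GRCm38.p6, plus strand, 5′ to 3′) after the last 8 were left off, and capitals mark matches on either strand to the MRE core (TGCACNC or TGCGCNC) and to the ARE core (TGACNNNGC).

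*Mt2*, chr8:94172368-94172609: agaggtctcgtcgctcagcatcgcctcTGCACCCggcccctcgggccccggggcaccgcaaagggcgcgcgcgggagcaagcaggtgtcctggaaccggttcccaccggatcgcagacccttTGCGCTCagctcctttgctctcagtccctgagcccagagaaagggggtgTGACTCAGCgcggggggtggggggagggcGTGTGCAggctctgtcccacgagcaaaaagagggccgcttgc

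*Mt1*, chr8:94178839-94179080: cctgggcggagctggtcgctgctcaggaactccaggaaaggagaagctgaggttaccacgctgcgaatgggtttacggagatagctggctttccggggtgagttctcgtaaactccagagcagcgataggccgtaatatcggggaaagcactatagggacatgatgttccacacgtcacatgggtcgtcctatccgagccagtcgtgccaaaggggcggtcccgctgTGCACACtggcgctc

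*Gclm*, chr3:122245307-122245548: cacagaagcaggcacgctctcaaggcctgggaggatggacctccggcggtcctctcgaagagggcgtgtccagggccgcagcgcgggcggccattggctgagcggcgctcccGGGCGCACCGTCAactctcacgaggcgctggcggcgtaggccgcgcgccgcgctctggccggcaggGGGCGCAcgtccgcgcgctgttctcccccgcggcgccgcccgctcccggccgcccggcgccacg

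The *Mt2* stretch held 3 MRE cores and 1 ARE core, that of *Mt1* held 1 MRE core, and that of *Gclm* held 2 MRE cores, 1 of which overlapped its ARE core. Counted over the whole window, which runs 50 bases past the start, *Mt2* had 4 MRE cores and *Mt1* and *Gclm* had 3 each. The remaining *Mt1* cores lay 2 to 8 and 20 to 26 bases past the start, so its count depends on the start used. At least 3 MRE cores were found in 1.97% of 32851 mouse promoter windows of the same length, at least 1 in 25.7%, and an ARE core in 12.4%. Of the 8 members with a RefSeq window, *Txnrd1* and *Sod1* also had an ARE core. *Txnrd1* had several windows, of which only that from chr10:82858956 held the core, whereas the shares of mouse promoters are per window. These matches describe the sequence of the windows alone, and sequence beyond them was not searched.

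After filtering, 4581 B10, 6313 *mdx*, 3279 DBA and 5756 D2-*mdx* cells remained, with medians of 8452, 7030, 10434 and 6675 unique molecular identifiers (UMIs, each a counted RNA molecule) per cell. The B10 library stood apart, because 4739 of its 9931 barcodes had under 1000 genes against 11 to 21 in the other libraries. Barcodes above 8% mitochondrial UMIs were also far more common there, with 4143 against 30 to 272 elsewhere. After both the gene and mitochondrial limits, 4762 B10 barcodes passed, before doublets were removed. The B10 library is the only control on its background, so the *mdx* to B10 values cannot be given without it. The part of its cell quality in those values was not tested. Cell barcodes were nearly all distinct, with 3 to 8 of the kept barcodes shared by any pair of libraries. *Dmd* stood at 324 counts per 1000000 UMIs (CPM) in B10 and 120 in *mdx*, and 288 in DBA and 93.8 in D2-*mdx* myogenic cells, lower in both dystrophic libraries, although 3′ counts cannot show the point mutation itself.

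Clusters were named from marker genes, and a name stands for cells like that type. MuSC-like cells expressed all 8 of their markers and numbered 3969 in B10 and 3150 in *mdx*, and 2349 in DBA and 2763 in D2-*mdx*, and the largest MuSC-like cluster was led by the immediate-early and stress genes *Nr4a1*, *Btg2*, *Dnajb1* and *Fos*. DMD-enriched-like cells, led by *Postn*, numbered 35, 906, 44 and 575. Cycling progenitor-like cells (3, 127, 12 and 267), differentiating myocyte-like cells (37, 227, 51 and 209) and immunomyoblast-like cells led by interferon-response genes (125, 76, 15 and 28) were the other named myogenic states. Between 5.66% and 8.52% of myogenic cells were left unnamed, most of them in a cluster led by *Esm1*, *Fosl1* and *Tnc*, under a score limit set after seeing the data. Pericyte-like, glial-like, endothelial-like, white blood cell-like, Schwann cell-like, vascular smooth muscle-like and fibroblast- or tenocyte-like cells made up the rest, the white blood and endothelial classes despite the gate against CD45 and CD31. Classes with under 20 cells in a library were not used there.

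With 1 library per strain no test across mice was possible, so no p-values are given. UMIs were summed over the cells of a class and given as CPM of that sum. Ratios carry the 95% exact interval of the counts in parentheses on the log2 scale. All intervals cover counting error only, not the spread between cells or between mice.

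*Mt1* was by far the most abundant member. Over all myogenic cells it stood at 566 CPM in DBA, 1313 in B10, 1429 in D2-*mdx* and 1954 in *mdx*, and no neighbours in this order had overlapping counting error. *Mt1* was 1.49-fold higher in *mdx* than in B10 (log2 ratio 0.57, 0.56 to 0.59) and 2.53-fold higher in D2-*mdx* than in DBA (1.34, 1.31 to 1.36).

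*Mt2*, the second metallothionein, stood at 596 CPM in B10 and 674 in *mdx*, and 241 in DBA and 501 in D2-*mdx*. The log2 ratio of *Mt2* was 0.18 (0.15 to 0.20) in *mdx* over B10 and 1.06 (1.02 to 1.10) in D2-*mdx* over DBA. D2-*mdx* thus lay below the B10 control while its own control was the lowest of the 4 libraries. The plot of levels by library shows the metallothioneins above every other member in all 4 libraries.

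**Figure D1:**
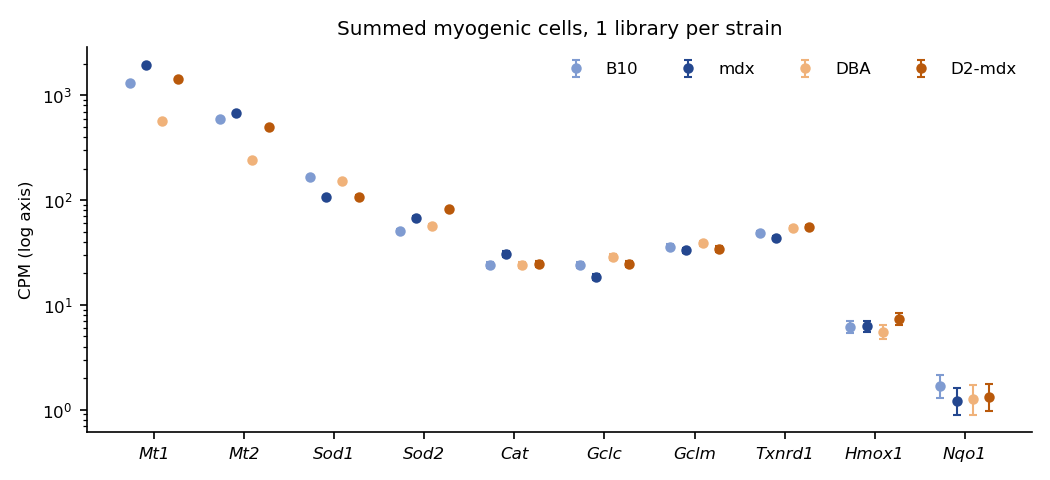
CPM (log axis) of the 10 members in summed myogenic cells of each library, 1 point per library, with bars for the 95% exact Poisson interval of the count. *Mt1* reached 1954 CPM in *mdx* and 566 in DBA, and *Nqo1* lay below 2 CPM in every library.

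The makeup of the myogenic cells differed between strains, so the metallothioneins were also read within states. In MuSC-like cells *Mt1* stood at 1347 CPM in B10 and 2894 in *mdx*, and 564 in DBA and 1933 in D2-*mdx*. Both dystrophic libraries lay above both controls, by 2.15-fold for *mdx* over B10 (1.10, 1.09 to 1.12) and 3.42-fold for D2-*mdx* over DBA (1.78, 1.75 to 1.80). *Mt2* in the same cells stood at 600.2, 874, 233 and 612 CPM, with log2 ratios of 0.54 and 1.39.

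CPM is a share of each library's UMIs, and MuSC-like cells of the dystrophic libraries held fewer UMIs per cell in all. The mean went from 8800 in B10 to 6202 in *mdx* (log2 ratio -0.50) and from 10887 in DBA to 6191 in D2-*mdx* (-0.81). Counted as UMIs per cell, *Mt1* was still higher, at 11.9 in B10 and 17.95 in *mdx* (0.60), and at 6.14 in DBA and 12.0 in D2-*mdx* (0.96). For *Mt2* the mean per cell was 5.28 in B10 and 5.42 in *mdx* (0.04), and 2.54 in DBA and 3.79 in D2-*mdx* (0.58). Without scaling, then, the metallothionein difference in MuSC-like cells on the B10 background was mainly that of *Mt1*.

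In DMD-enriched-like cells the summed levels on the B10 background went the opposite way. *Mt1* stood at 1065 CPM in the 35 B10 cells and 785 in the 906 *mdx* cells (-0.44, -0.59 to -0.29), against 542 in DBA and 1002 in D2-*mdx* (0.89, 0.73 to 1.05). *Mt2* stood at 690 in B10 and 279 in *mdx* (-1.30, -1.49 to -1.11), and at 341 in DBA and 354 in D2-*mdx* (0.06, -0.15 to 0.27). The difference between states was not tested.

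In differentiating myocyte-like cells the libraries lay close together for *Mt1*, at 573 CPM in B10 and 510 in *mdx*, and 521 in DBA and 606 in D2-*mdx*. Their log2 ratios were -0.17 (-0.34 to 0.01) and 0.22 (0.06 to 0.38). *Mt2* was lower in the dystrophic libraries in these cells, at 285 CPM in B10 and 236 in *mdx* (-0.27, -0.52 to -0.02), and 248 in DBA and 204 in D2-*mdx* (-0.28, -0.52 to -0.04). Cycling progenitor-like cells, numerous enough only in the dystrophic libraries, held 634 CPM of *Mt1* in *mdx* and 692 in D2-*mdx*, that is 4.57-fold and 2.80-fold less than MuSC-like cells of the same libraries. Within each dystrophic library the DMD-enriched-like, cycling and differentiating states all lay below MuSC-like cells in *Mt1*.

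The unnamed myogenic cells led by *Esm1* also differed, with *Mt1* at 1056 CPM in B10 and 2668 in *mdx*, and 609 in DBA and 1341 in D2-*mdx* (1.34 and 1.14). Their *Mt2* stood at 556 CPM in B10 and 1513 in *mdx*, and 298 in DBA and 689 in D2-*mdx* (1.44 and 1.21). Outside muscle lineage cells, pericyte-like cells, which wrap capillaries, held *Mt1* at 481, 1270, 294 and 610 CPM in the same order of libraries (1.40, 1.27 to 1.54, and 1.06, 0.97 to 1.14). *Mt2* in pericyte-like cells stood at 57.3, 182, 28.8 and 91.2 CPM, with log2 ratios of 1.66 in both comparisons. Glial-like cells held *Mt1* at 458, 712, 248 and 565 CPM (0.64 and 1.19). *Mt2* in glial-like cells gave 0.17 (-0.33 to 0.72) and 0.85 (0.34 to 1.40). In white blood cell-like cells, compared on the DBA background alone, *Mt1* gave 0.62 (0.34 to 0.91) and *Mt2* -0.03 (-0.62 to 0.60). In pericyte-like cells the summed CPM of 8 myofibre genes was 52.6, 40.7, 83.7 and 65.2.

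Metallothionein levels followed the immediate-early genes, a list of 17 genes such as *Fosb* that are switched on quickly by stress and by tissue dissociation. That list summed to 47545 CPM in B10 and 56743 in *mdx*, and 40284 in DBA and 57660 in D2-*mdx* MuSC-like cells. Over all myogenic cells, where a median and not a sum was taken, the log2 ratio of its genes was negative in both disease comparisons. MuSC-like cells were thinned to 3000 UMIs each and split into 4 equal parts by their immediate-early UMIs. From the lowest to the highest part, *Mt1* went from 195 to 2677 CPM in B10 and from 671 to 4545 in *mdx*, and from 146 to 1045 in DBA and from 416 to 2801 in D2-*mdx*. The parts did not hold equal shares of each library, since 29.8% of B10, 25.1% of *mdx*, 27.03% of DBA and 16.1% of D2-*mdx* MuSC-like cells fell in the lowest.

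Within each of these parts the dystrophic cells held more *Mt1*. In *mdx* over B10 the log2 ratio was 1.78 (1.65 to 1.91) in the lowest part, 1.48 and 0.80 in the middle parts and 0.76 (0.72 to 0.81) in the highest. In D2-*mdx* over DBA it was 1.51 (1.30 to 1.72), 1.52, 1.23 and 1.42 (1.31 to 1.54). On the B10 background the difference was smaller in cells rich in immediate-early RNA, whereas on the DBA background it lay between 1.23 and 1.52.

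For *Mt2* the log2 ratio in *mdx* over B10 was 0.68, 0.84, 0.40 and 0.12 (0.05 to 0.19) from the lowest part to the highest, and in D2-*mdx* over DBA it was 1.17, 1.36, 1.12 and 0.94. *Sod1* did not follow the immediate-early genes, with 165, 165, 161 and 176 CPM in the 4 parts of B10. The part of dissociation in the metallothionein levels was not tested. The summed CPM of 9 glucocorticoid-response genes in MuSC-like cells was 2199 in B10 and 2850 in *mdx*, and 1587 in DBA and 2504 in D2-*mdx*. This sum was also higher in the dystrophic libraries. Over all myogenic cells the median log2 ratio of the list was negative in both comparisons. A sum follows its most abundant genes, and the median covers other cells, so these readings cannot be set against each other. Over all myogenic cells *Zbtb16* (-1.49 and -1.40) and *Per1* (-0.91 and -1.21) were lower in both, and no gene of the list was 1.5-fold higher in both. The part of this list in the metallothionein levels was not tested either.

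**Figure D2:**
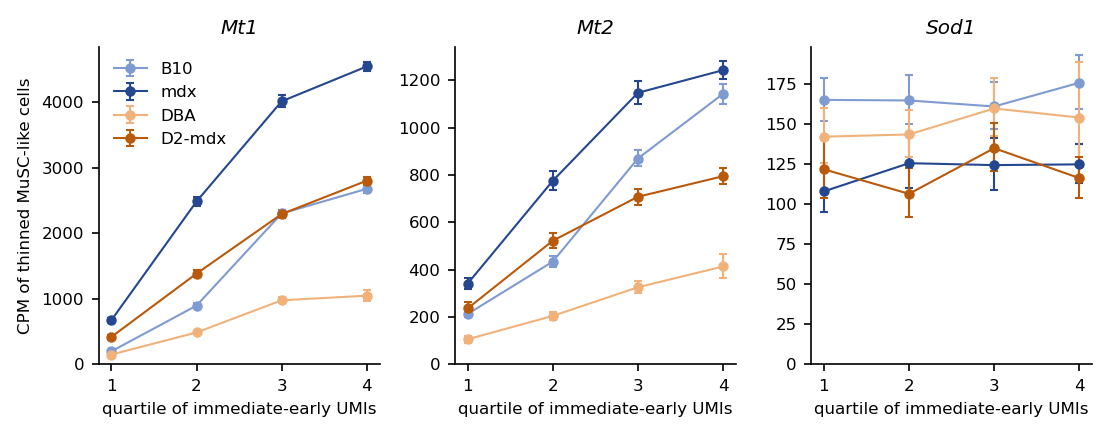
CPM of *Mt1*, *Mt2* and *Sod1* in MuSC-like cells thinned to 3000 UMIs, by quartile of immediate-early UMIs (1 is the lowest), 1 line per library, with bars for the 95% exact Poisson interval. *Mt1* in *mdx* went from 671 to 4545 CPM and lay above B10 (195 to 2677) in each quartile.

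*Mt1* was spread unevenly over single MuSC-like cells. Of 3000 UMIs, the median cell held 1 *Mt1* UMI in B10 and 3 in *mdx*, and 0 in DBA and 3 in D2-*mdx*, whereas the highest single cell held 88, 134, 31 and 66. The upper quartile was 4 in B10 and 12 in *mdx*, and 2 in DBA and 8 in D2-*mdx*. The variance was 16.3 times the mean in B10 and 21.6 times in *mdx*, and 7.31 times in DBA and 10.8 times in D2-*mdx*, where sampling alone would give a ratio near 1.

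The share of MuSC-like cells with an *Mt1* UMI at this depth was 58.1% in B10 and 76.2% in *mdx*, and 46.1% in DBA and 78.4% in D2-*mdx*. At full depth (medians of 8218, 5630, 10169 and 5580 UMIs) the shares were 76.7%, 84.9%, 70.3% and 88.7%, in the same order. Endothelial-like cells, the class lowest in *Mt1*, gave 15.0% in *mdx* and 25.8% in D2-*mdx* after thinning and 29.2% and 51.7% at their full median depths of 7472 and 7687 UMIs. The dystrophic libraries therefore differed from their controls both in the share of cells with *Mt1* and in how far the upper cells reached.

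**Figure D3:**
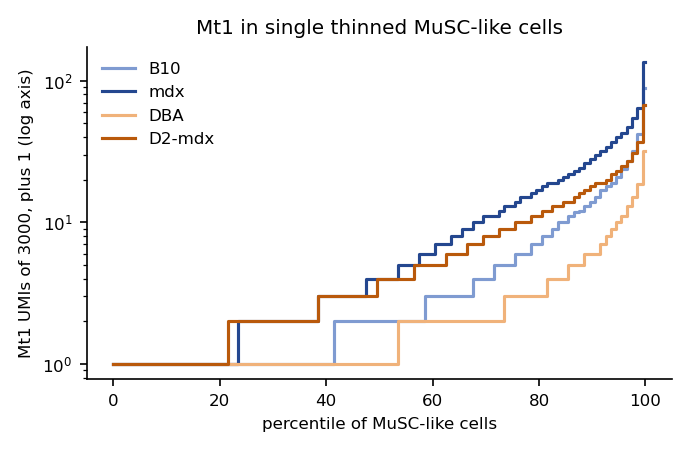
*Mt1* UMIs of 3000, plus 1 (log axis), at each percentile of thinned MuSC-like cells, 1 line per library. The median cell held 3 UMIs in *mdx* and in D2-*mdx*, 1 in B10 and 0 in DBA.

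Within a library the metallothioneins varied together from cell to cell. Over thinned MuSC-like cells the Pearson correlation of *Mt1* with *Mt2* was 0.63 in B10 (3933 cells) and 0.70 in *mdx* (3150), and 0.50 in DBA (2349) and 0.55 in D2-*mdx* (2763). The correlation of *Mt1* with the immediate-early sum ranged from 0.29 in DBA to 0.43 in B10 and *mdx*, and those with *Sod1*, *Sod2* and *Gclm* lay between -0.03 and 0.02 in each library. These describe cells of 1 library that share its depth and background RNA.

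The balance of the metallothioneins also differed. For each *Mt2* UMI there were 2.24 *Mt1* UMIs in B10 MuSC-like cells (2.21 to 2.28), 3.31 in *mdx* (3.25 to 3.37), 2.42 in DBA (2.35 to 2.50) and 3.16 in D2-*mdx* (3.09 to 3.23), higher in both dystrophic libraries. In the MuSC-like cluster low in immediate-early genes the ratios were 0.962, 1.88, 1.14 and 1.92. Pericyte-like cells held far less *Mt2* relative to *Mt1*, with 8.38, 6.99, 10.2 and 6.70 *Mt1* UMIs for each *Mt2* UMI, and cells like Schwann cells held 7.75 in *mdx* and 5.33 in D2-*mdx*.

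*Sod1*, the cytosolic copper and zinc superoxide dismutase, was the member lower in the dystrophic libraries in most classes. Over myogenic cells it stood at 165 CPM in B10 and 107 in *mdx*, and 152 in DBA and 108 in D2-*mdx*, and the counting intervals of *mdx* and D2-*mdx* could not be told apart. Both controls lay above both dystrophic libraries, by 1.54-fold over *mdx* (-0.62, -0.68 to -0.57) and 1.41-fold over D2-*mdx* (-0.50, -0.56 to -0.44).

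The direction held in MuSC-like cells, with 166, 113, 152 and 117 CPM (-0.55 and -0.38), in DMD-enriched-like cells (-0.80 and -0.62), in differentiating myocyte-like cells (-0.97 and -0.57) and in pericyte-like cells (-0.61 and -0.48). Among the classes compared, the interval held 0 for *mdx* over B10 in immunomyoblast-like cells (-0.11, -0.50 to 0.28) and in glial-like cells (-0.60, -1.17 to 0.02), and for D2-*mdx* over DBA in white blood cell-like cells, with 62.3 CPM in both (-0.70 to 0.78). In MuSC-like cells the mean was 1.46 *Sod1* UMIs per cell in B10 and 0.702 in *mdx*, and 1.65 in DBA and 0.724 in D2-*mdx* (-1.06 and -1.19). UMIs of all genes also fell per cell there (-0.50 and -0.81). Every member but the metallothioneins was lower per cell in both comparisons, such as *Sod2* (-0.52 and -0.62) and *Cat* (-0.47 and -0.85). The share of all genes lower per cell is not given, so this is not read as a trait of the members. A per-cell fall was thus not particular to *Sod1*, although *Sod1* fell further than the UMIs of all genes. By class *Sod1* was highest in endothelial-like cells, at 179 CPM in *mdx* and 219 in D2-*mdx*, a mean of 1.73 times MuSC-like cells. *Sod1* overlaps *Scaf4* on the opposite strand.

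*Sod2*, the mitochondrial manganese enzyme, was higher in the dystrophic libraries over all myogenic cells, at 50.4 CPM in B10 and 68.0 in *mdx*, and 56.6 in DBA and 81.8 in D2-*mdx* (0.43, 0.35 to 0.52, and 0.53, 0.44 to 0.62). Within MuSC-like cells most of that difference was absent, with 48.4 CPM in B10 and 48.0 in *mdx* (-0.01, -0.13 to 0.11), and 53.1 in DBA and 60.6 in D2-*mdx* (0.19, 0.07 to 0.31). By state, cycling progenitor-like cells held 112 CPM in *mdx* and 129 in D2-*mdx*, and differentiating myocyte-like cells held 73.4, 140, 125 and 123 CPM in B10, *mdx*, DBA and D2-*mdx*. The unnamed cells held 64.2, 112, 65.5 and 108 CPM in the same order (0.80, 0.55 to 1.06, and 0.72, 0.46 to 0.98). States weighted as in the control were tried among the alternative settings, but the part of cell makeup in the *Sod2* difference over all myogenic cells was not tested. Outside the myogenic cells *Sod2* was highest in vascular smooth muscle-like cells (215 CPM in *mdx*) and was also high in pericyte-like cells, at 107, 177, 136 and 174 CPM.

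*Cat* encodes catalase, the peroxisomal enzyme that splits hydrogen peroxide. It stood at 24.0 CPM in B10 and 30.6 in *mdx*, and 24.0 in DBA and 24.7 in D2-*mdx* myogenic cells (0.35, 0.22 to 0.47, and 0.04, -0.10 to 0.19). In MuSC-like cells the 4 libraries lay between 23.7 and 24.8 CPM, and the log2 ratios were 0.03 and -0.04. Differentiating myocyte-like cells of the dystrophic libraries held more, at 34.0 CPM in B10 and 61.0 in *mdx* (0.84, 0.16 to 1.60), and 23.7 in DBA and 46.3 in D2-*mdx* (0.97, 0.26 to 1.75), from 19 UMIs in each control. Cycling progenitor-like cells held less, 16.2 CPM in *mdx* and 10.1 in D2-*mdx*. The unnamed *Esm1* cells went the other way on the B10 background, at 27.8 CPM in B10 and 14.2 in *mdx* (-0.97, -1.51 to -0.44). In DBA and D2-*mdx* they held 16.7 and 14.9 CPM (-0.17, -0.77 to 0.43).

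The most *Cat* was held by Schwann cell-like cells, which myelinate nerve, with 102 CPM in *mdx* and 144 in D2-*mdx*, a mean of 5.07 times MuSC-like cells of the same libraries. After thinning, 25% and 26.1% of them had a *Cat* UMI, against 6.81% to 7.59% of myogenic cells in the 4 libraries. At full depth the shares were 40% and 54.3% of Schwann cell-like cells (medians of 4774 and 5682 UMIs) and 17.2% to 22.5% of myogenic cells (medians of 6487 to 10290 UMIs).

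*Gclc* and *Gclm* encode the catalytic and the modifier subunit of glutamate-cysteine ligase, the limiting enzyme of glutathione synthesis. *Gclc* stood at 24.1 CPM in B10 and 18.5 in *mdx*, and 28.4 in DBA and 24.5 in D2-*mdx* myogenic cells (-0.38, -0.52 to -0.24, and -0.21, -0.35 to -0.08). In MuSC-like cells its levels were 23.9, 18.1, 26.6 and 25.02 CPM (-0.40 and -0.09). *Gclc* was therefore lowest in *mdx* in both readings, below the other 3 libraries.

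*Gclm* stood at 35.8, 33.2, 38.8 and 34.2 CPM in B10, *mdx*, DBA and D2-*mdx* (-0.11, -0.22 to -0.00, and -0.18, -0.30 to -0.06), and in MuSC-like cells both log2 ratios were -0.04. The subunits had different places among the classes. *Gclm* was highest in vascular smooth muscle-like cells (102 CPM in *mdx*, 3.07 times MuSC-like cells) and high in endothelial-like cells (95.3 CPM in *mdx* and 75.2 in D2-*mdx*), whereas *Gclc* had its highest mean in the unnamed *Esm1* cells, at 1.46 times MuSC-like cells, although pericyte-like cells in *mdx* (31.4 against 29.0 CPM) and glial-like cells in B10 (33.8 CPM) were higher. *Gclm* counts are uncertain to the extent that its gene overlaps *Gm6061* on the same strand.

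*Txnrd1*, cytosolic thioredoxin reductase, gave no common direction over all myogenic cells, with 48.4 CPM in B10 and 43.3 in *mdx*, and 54.3 in DBA and 55.8 in D2-*mdx* (-0.16, -0.26 to -0.07, and 0.04, -0.06 to 0.13). In MuSC-like cells it was lower in both dystrophic libraries, at 47.6 in B10 and 34.6 in *mdx* (-0.46, -0.59 to -0.33), and 50.4 in DBA and 38.9 in D2-*mdx* (-0.37, -0.51 to -0.24). In the unnamed *Esm1* cells it was higher in both, with 57.7, 81.8, 77.6 and 101.2 CPM in B10, *mdx*, DBA and D2-*mdx* (0.50 and 0.38). Cycling progenitor-like cells held 76.2 CPM in *mdx* and 91.8 in D2-*mdx*, a mean of 2.29 times MuSC-like cells but below the unnamed cells of the same libraries. The gene overlaps *Eid3* on the same strand, which makes its counts uncertain.

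*Hmox1* encodes the inducible haem oxygenase that degrades haem. It was rare in myogenic cells, at 6.19 CPM (247 UMIs) in B10 and 6.24 (252) in *mdx*, and 5.51 (166) in DBA and 7.34 (256) in D2-*mdx*, with log2 ratios of 0.01 (-0.25 to 0.27) and 0.41 (0.13 to 0.71). From the lowest to the highest library, DBA, B10, *mdx* and D2-*mdx*, no neighbours could be told apart at this depth. White blood cell-like cells held far more, 160 CPM in *mdx*, 84.3 in D2-*mdx* and 285 in DBA, that is 26.9, 13.0 and 56.1 times MuSC-like cells of the same libraries. The mean over these libraries was 30.2 times MuSC-like cells, and 19.7 times without DBA. The DBA value came from 87 UMIs in 22 cells, of which 3 had an *Hmox1* UMI after thinning.

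After thinning, 25.9% of white blood cell-like cells in *mdx* and 20.9% in D2-*mdx* had an *Hmox1* UMI, against 1.76% and 2.11% of myogenic cells. At full depth these shares were 48.2% and 47.9% (medians of 8269 and 10285 UMIs) against 4.34% and 5.53% (6849 and 6487 UMIs). Pericyte-like cells of the dystrophic libraries held more *Hmox1* than those of the controls: 6.69 CPM (7 UMIs) in B10 and 17.0 (86) in *mdx* (1.34, 0.24 to 2.70), and 3.89 (22) in DBA and 13.8 (106) in D2-*mdx* (1.83, 1.15 to 2.56). White blood cells made up 1 cell in B10 and 112 in *mdx*, and 22 in DBA and 163 in D2-*mdx*, and their part in the pericyte values was not tested.

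*Nqo1*, the NAD(P)H quinone reductase used as a standard readout of NRF2, was the rarest member. Myogenic cells held 67 UMIs in B10 (1.68 CPM) and 49 in *mdx* (1.21), and 38 in DBA (1.26) and 46 in D2-*mdx* (1.32), and the log2 ratios were -0.47 (-1.03 to 0.08) and 0.07 (-0.59 to 0.72). A difference between libraries was not detectable at this depth. In pericyte-like cells *Nqo1* was lower in the dystrophic libraries, at 14.3 CPM (15 UMIs) in B10 and 4.54 (23) in *mdx* (-1.66, -2.66 to -0.62), and 7.25 (41) in DBA and 4.30 (33) in D2-*mdx* (-0.75, -1.46 to -0.06). Pericyte-like cells thus held more *Hmox1* and less *Nqo1* in the dystrophic libraries. In the dystrophic libraries endothelial-like cells had the highest *Nqo1* of the classes used, 7.26 CPM (16 UMIs) in *mdx* and 14.0 (11 UMIs) in D2-*mdx*, and the control libraries held too few of them.

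Read as a panel, few members passed a 1.5-fold difference. Of the 8 members that reached 10 CPM in either library of both pairs (*Nqo1* and *Hmox1* fell below), none was 1.5-fold higher in *mdx* than in B10 myogenic cells, where 10.5% of 8476 genes were, and *Mt1* lay just under the limit at 1.49-fold. *Sod1* was the 1 member 1.5-fold lower, against 13.6% of genes. In D2-*mdx* over DBA, *Mt1* and *Mt2* were 1.5-fold higher, 2 of 8 against 13% of 8506 genes, and 0 members were 1.5-fold lower against 17.6%.

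In MuSC-like cells *Mt1* was 1.5-fold higher in *mdx* over B10, 1 of 8 against 6.57% of 8358 genes, and 0 members were lower against 10.3%. In D2-*mdx* over DBA, *Mt1* and *Mt2* were higher, 2 of 8 against 7.86% of 8347 genes, and 0 members were lower against 11.5%. The median log2 ratio of the members was 0.03 and 0.04 in myogenic cells, where that of all genes was -0.03 and -0.07, and -0.03 and -0.04 in MuSC-like cells, where that of all genes was -0.07 and -0.08.

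**Figure D4:**
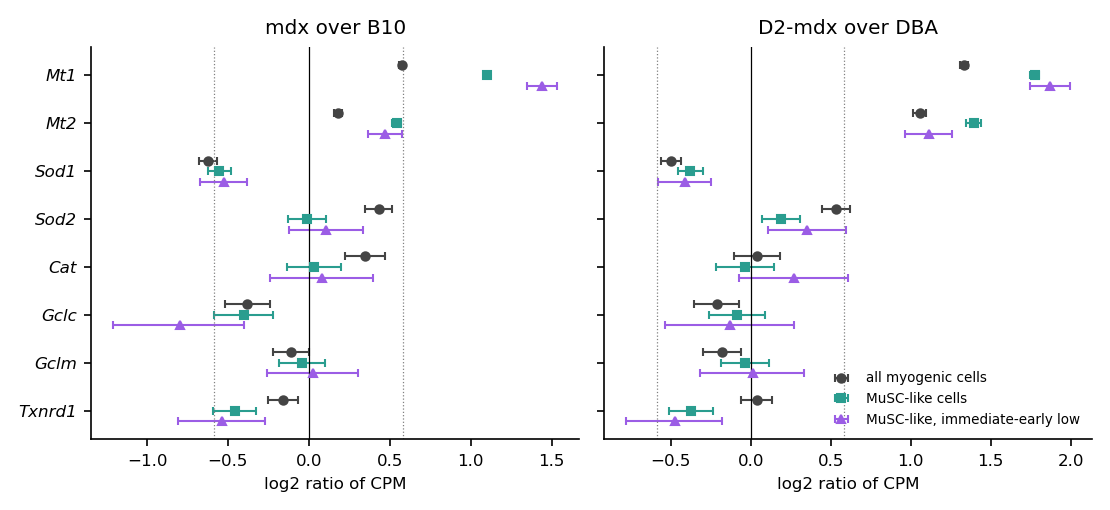
log2 ratio of CPM for the 8 members above 10 CPM in each disease comparison, in all myogenic cells, MuSC-like cells and the MuSC-like cluster low in immediate-early genes, with bars for the 95% exact interval of the counts and dotted lines at a fold of 1.5 either way. *Mt1* lay at 0.57, 1.10 and 1.44 in *mdx* over B10, and *Sod1* lay below 0 in each.

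By class, some members had their highest mean level, relative to MuSC-like cells of the same libraries, outside the myogenic cells. The share of all genes that do so is not given, so these places are not read as a trait of the panel. These members were *Hmox1* in white blood cell-like, *Nqo1* and *Sod1* in endothelial-like, *Sod2* and *Gclm* in vascular smooth muscle-like and *Cat* in Schwann cell-like cells. Each of these classes was also the highest in every library that held at least 20 of its cells, which was *mdx* alone for vascular smooth muscle-like cells. The means of the other 4 members did not hold library by library. By the mean *Mt1* was the 1 member highest in MuSC-like cells among the myogenic states, but immunomyoblast-like cells were higher in B10 (1428 against 1347 CPM) and the unnamed cells in DBA (609 against 564). *Mt2* and *Gclc* had their highest mean in the unnamed *Esm1* cells, at 1.32 and 1.46 times MuSC-like cells, and these were the highest class in 1 and in 2 of the 4 libraries.

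**Figure D5:**
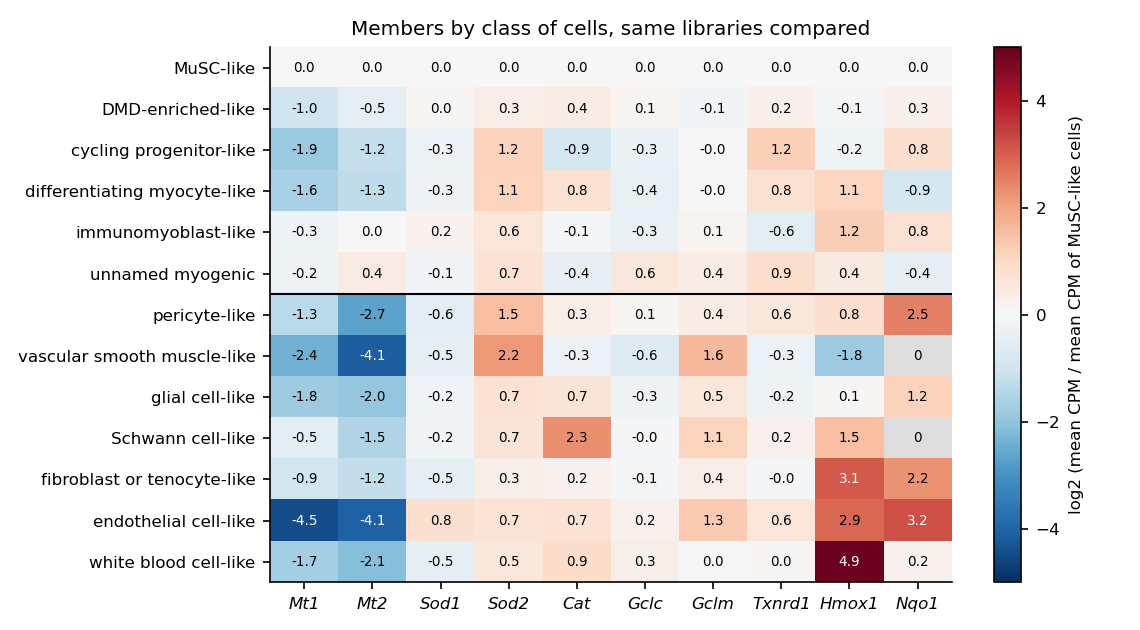
log2 of the mean CPM of each member in a class over its mean in MuSC-like cells of the same libraries, by colour, for classes with at least 20 cells in a library. Grey cells marked 0 held no UMI. *Hmox1* in white blood cell-like cells (30.2 times, 19.7 times without DBA) and *Nqo1* in endothelial-like cells (9.25 times) stand out, and the metallothioneins were lower than in MuSC-like cells in most other classes.

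The controls of the different backgrounds also differed. *Mt1* was 2.32-fold lower in DBA than in B10 myogenic cells (-1.21) and *Mt2* 2.47-fold lower (-1.31). Between the dystrophic libraries the gap was smaller, with *Mt1* 1.37-fold lower (-0.45) and *Mt2* 1.35-fold lower (-0.43) in D2-*mdx* than in *mdx*. *Sod1* was alike in the dystrophic libraries (0.01), *Txnrd1* was higher in D2-*mdx* (0.36) and so was *Gclc* (0.41). These pairs share their libraries with the disease comparisons.

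Transcription factors that act on these genes, and their partners, were read in the same myogenic cells. *Nfe2l2* gave log2 ratios of -0.08 in *mdx* over B10 and -0.22 in D2-*mdx* over DBA, and *Keap1*, which marks NRF2 for degradation, gave -0.42 and -0.44. *Bach1*, which represses *Hmox1* and other ARE genes, was higher in both (0.75 and 0.48). *Mtf1*, the zinc sensor, gave -0.13 (-0.28 to 0.02) and -0.36 (-0.53 to -0.19). Of the 9 redox regulators tested, 1 was 1.5-fold higher in *mdx* over B10 and 0 lower, and none passed in D2-*mdx* over DBA, with medians of -0.06 and -0.10. Of all genes tested, 10.5% were 1.5-fold higher and 13.6% lower in *mdx* over B10, and 13% and 17.6% in D2-*mdx* over DBA. Each list count below is to be read beside these shares, and several lie near them.

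The other glutathione genes differed in both directions. Of 21 tested in *mdx* over B10, 6 were 1.5-fold higher and 5 lower (median 0.16), and of 22 in D2-*mdx* over DBA again 6 were higher and 5 lower (median 0.28). The peroxidases *Gpx1* (1.32 and 1.81) and *Gpx8* (1.40 and 1.21), *Gsto1* (1.43 and 0.73) and *Glrx5* (0.87 and 0.85) were higher in both. The transferases *Gstt1* (-2.18 and -1.31), *Gsta4* (-1.88 and -1.35) and *Gstm1* (-1.78 and -1.14) and the secreted peroxidase *Gpx3* (-1.30 and -1.21) were lower in both.

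In the thioredoxin and peroxiredoxin list 2 genes were higher and 2 lower of 15 in *mdx* over B10, and 3 and 2 in D2-*mdx* over DBA, with medians of 0.26 and 0.21. Thioredoxin (*Txn1*, 0.70 and 1.23) and *Prdx2* (0.78 and 0.79) were higher in both, and the methionine sulfoxide reductases *Msrb2* (-0.75 and -1.37) and *Msrb3* (-0.63 and -1.08) were lower in both. The 3 other superoxide and peroxide genes passed in neither (medians 0.02 and 0.28). Among quinone and carbonyl genes 1 was higher and 1 lower of 6, and 1 higher of 7 (medians 0.03 and 0.02), and the aldo-keto reductase *Akr1b8* was the gene higher in both (2.78 and 3.36), from 6.44 CPM in B10 to 44.3 in *mdx* and from 5.34 in DBA to 54.8 in D2-*mdx*.

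Of 8 haem and iron genes, 1 was higher in *mdx* over B10 and 2 in D2-*mdx* over DBA (medians -0.06 and 0.21), with the iron exporter *Slc40a1* higher in both (1.91 and 1.95). Of 13 zinc and copper genes, 2 were higher and 1 lower in *mdx* over B10 and 1 higher and 3 lower in D2-*mdx* over DBA (medians -0.13 and -0.26). The copper chaperone *Atox1* was higher in both (0.74 and 1.19), and the zinc exporter *Slc30a1*, a target of MTF1 like the metallothioneins, was lower in both (-0.69 and -0.68). NADPH supply genes gave 1 higher of 5 and 1 lower of 6 (medians 0.42 and -0.15), and the 1 oxidant source tested gave 0.69 and 0.46.

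Over all myogenic cells the immediate-early list gave 0 higher and 6 lower of 17 in *mdx* over B10 and 2 of each in D2-*mdx* over DBA (medians -0.24 and -0.13), with *Fosb* lower in both (-1.16 and -0.60). The glucocorticoid list gave 1 higher and 3 lower of 9, and 0 and 2 (medians -0.31 and -0.20), with *Zbtb16* (-1.49 and -1.40) and *Per1* (-0.91 and -1.21) lower in both.

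Transcripts typical of myofibres and of red blood cells also differed in the myogenic cells, which include the differentiating myocyte-like cells. All myofibre genes tested were higher in the dystrophic libraries, 4 of 4 and 5 of 5, led by *Mylpf* (2.78 and 4.18), and the list of 8 summed to 36.6 CPM in B10 and 127 in *mdx*, and 30.8 in DBA and 318 in D2-*mdx*, with none at 0. The 4 globin genes were higher in both and summed to 275, 460, 297 and 925 CPM. In MuSC-like cells the myofibre sums were 37.0, 98.1, 32.3 and 196 CPM and the globin sums 24.6, 925, 348 and 1411 CPM. The source of these transcripts and their part in the metallothionein values were not tested.

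Finally, genes whose pattern was most like that of a member were sought over 30 sums of class by library with at least 50 cells, among 12560 genes. For *Mt1* the Pearson correlations of log2(CPM + 1) were highest with *Mt2* (0.82), *Irs2* (0.79) and *Sdc4* (0.77), and for *Mt2* with *Sdc4* (0.87), *Sox9* (0.86) and *Bnc2* (0.85). For *Hmox1* they were *Rps6ka1* (0.87), *Lcp2* (0.86) and *Phf11b* (0.85), and for *Nqo1* they were *Cyp26b1* (0.85), *Fat4* (0.82) and *Spock2* (0.81). Sums of the same library share depth and background RNA, so these values describe likeness of pattern alone.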

How the data were processed

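The deposited matrices hold raw counts of UMIs per gene and barcode, made by the authors with Cell Ranger 3.0.1 on mm10 (per the submitters' processing notes) from 10x 3′ libraries, 1 per strain. The annotation release is not given in the sources used here.

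Barcodes outside 1000 to 5000 genes or above 8% mitochondrial UMIs were dropped, and the cells with the highest Scrublet scores (scanpy 1.11.5) were removed as doublets, 0.8% per 1000 cells. Libraries were integrated with Seurat 5.3.0 in R 4.3.3 (canonical correlation anchors, 2000 features without the members, 30 dimensions) and clustered at resolution 0.1, and myogenic cells again at 0.2. A cluster was named where at least 3 markers of a type were each in 10% of its cells, with a mean score of at least 0.5 for myogenic states. Counts were summed per library and class, in Python 3.11.15 with numpy 2.4.6 and pandas 2.3.3, and are given as CPM. Poisson and conditional binomial 95% intervals (scipy 1.17.1) cover counting error only, as do shares with exact binomial intervals. Kept libraries held 37024800 to 52732731 UMIs. A gene needed 10 CPM in a library of a pair to be counted against the 1.5-fold limit. Cells were thinned to 3000 UMIs for shares and single-cell values, which left out 39 B10 myogenic cells. The ratios and their intervals were tested on simulated Poisson counts of summed myogenic cells, which carry no spread between cells.

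No p-values were computed, because each strain is 1 library of 2 mice. The members, pathway lists and markers were chosen with earlier results of these data known. Named in the text are the 10 members, *Dmd*, list genes 1.5-fold apart in the same direction in both disease comparisons (at most 4 per list and direction), 4 regulators, and the 3 genes most alike to *Mt1*, *Mt2*, *Hmox1* and *Nqo1*. Genes that lead a cluster are named as well. Other cell filters, integration, resolutions, library sizes (edgeR 4.0.16 TMM, DESeq2 1.42.0 size factors), cell selections and limits were tried as alternatives. Promoter windows came from RefSeq, where 8 of 10 members matched.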

Additional observations from a re-analysis of the deposited data

Results flagged for a closer look

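The B10 library held 4739 barcodes with under 1000 genes, and these stand outside every comparison of the report. They carried 2683638 UMIs in all, in which each member was seen above the limit that a count of 0 allows. Their summed level was 783 CPM for *Mt1* and 456 for *Mt2*. It was 71.9 CPM for *Sod1*, 27.2 for *Sod2* and 19.4 for *Cat*. For *Gclc*, *Gclm* and *Txnrd1* it was 14.5, 15.7 and 26.5 CPM, and for *Hmox1* and *Nqo1* it was 4.47 and 1.49 CPM. What these barcodes hold was not tested.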

How the results depend on the processing

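No paired analysis was possible because each strain is 1 library and the labels give no replicate numbers. Of 106 recomputed counts, medians and places of the members, 90 stayed within their limits and 16 did not. The number of members 1.5-fold higher in *mdx* over B10 went from 0 to 1 with at least 500 genes per cell and no upper limit, with TMM or DESeq2 size factors, with the mean of per-cell counts, and in MuSC-like cells or their cluster low in immediate-early genes, and to 2 with all cells or with states weighted as in the control. The number lower went from 1 to 0 in MuSC-like cells, with weighted states and at a fold of 2. The median of the members in *mdx* over B10 went from 0.03 to 0.17 with all cells and to -0.049 with no CPM minimum, and in D2-*mdx* over DBA from 0.04 to 0.20 with the wider gene limits. Members highest in MuSC-like cells among the myogenic states numbered 2 with those limits and 0 by plain mean CPM, an alternative chosen after seeing the data, as was the level of *Hmox1* in white blood cell-like cells without DBA (19.7 against 30.2 times MuSC-like cells). Over 13 settings *Mt1* ran from 0.41 to 1.44 and from 1.06 to 1.87, and *Sod1* from -0.63 to -0.53 and from -0.53 to -0.38. *Mt2* ran from -0.05 to 0.59 in *mdx* over B10 and from 0.80 to 1.39 in D2-*mdx* over DBA. *Sod2* ran from -0.01 to 0.64 and from 0.19 to 0.73. *Txnrd1*, *Hmox1* and *Gclm* took either sign in both comparisons, and *Cat* and *Nqo1* in D2-*mdx* over DBA. Of 260 recomputed ratios of members, 179 moved by less than their counting interval and 81 moved by more. For list medians the split was 272 and 92, and for shares of cells 3 and 77. Without integration the myogenic clusters split by library, so that the classes then follow the library. Depth limits *Nqo1* and *Hmox1* in myogenic cells, and 1 library per strain limits every comparison.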

Other observations

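Some classes with values in few libraries were not described above. Schwann cell-like cells held *Mt1* at 1967 CPM in *mdx* and 1405 in D2-*mdx*, and fibroblast- or tenocyte-like cells held 1639 and 910 CPM. Endothelial-like cells held 77.6 and 143 CPM. White blood cell-like cells held 732 CPM of *Mt1* in *mdx*, 570 in D2-*mdx* and 370 in DBA. Immunomyoblast-like cells held 1428 CPM in B10, 2005 in *mdx* and 1754 in D2-*mdx*. Fibroblast- or tenocyte-like cells also held *Hmox1* at 46.0 CPM in *mdx* and 58.3 in D2-*mdx*, from 15 and 37 UMIs.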
